A study of Mus musculus musculus x M. m. domesticus and Mus musculus musculus x Mus musculus castaneus and Mus musculus domesticus with 42 samples.

Results

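The testis of male F1 hybrids from a Mus musculus castaneus mother and an M. m. musculus father was compared with the testis of both parental subspecies and with the mean of the parents. The arrays were chosen by genotype and tissue alone: 2 of castaneus x musculus F1 males, written with the mother first, 2 of castaneus males and 2 of musculus males. These are 6 of the 14 testis arrays and 6 of the 42 arrays of the series, which covers brain, liver and testis of 3 house mouse subspecies and 4 reciprocal F1. The parents were wild-derived inbred lines, the F1 males were 54 days old and the castaneus and musculus males 47 days old, so a difference between the F1 and a parent cannot be told apart from one between these ages. The reverse cross, the musculus x castaneus F1 at 53 days, is used below only where the comparison shows how the castaneus x musculus F1 differs from it. The question of the design is how transcripts that differ between the parents are expressed in the hybrid, and which transcripts leave the range of the parents.

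In a first-generation hybrid every autosomal gene is present as 1 allele of each parent, and a transcript made equally from both alleles at their parental rates has the mean of the parental levels. A male receives the X chromosome only from the mother and the Y only from the father, so here the X is that of castaneus and the Y that of musculus. Most RNA in an adult testis comes from meiotic and postmeiotic germ cells, and the remainder from Sertoli cells, which nurse them, androgen-producing Leydig cells, peritubular muscle-like cells, vessels and immune cells. Hybrid males of some house mouse crosses are sterile, and the outcome often depends on which subspecies is the mother.

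Levels are MAS5 signals, a relative brightness per probe set, and differences are given on the scale of log2(signal + 31), which understates the change of dim transcripts. Of 45037 probe sets, 27022 were bright enough to be tested, covering 14059 named genes. A call is a limma adjusted p under 0.05 over all of them. The spermatid gene Prm1, a protamine that packs sperm DNA, had signals of 16154 to 28915 on the testis arrays against at most 53 in brain and 47 in liver, which checks the tissue label. The first F1 male had the lowest median signal of all 14 testis arrays, 95, against 130 in the second F1 male, and these differed more from each other than the males of any other group (SD of their log2 difference 0.43, against 0.36 to 0.41 in the other groups). With 2 males a group precision is limited, and the median SE of a log2 difference between the F1 and a parent was 0.23.

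Few transcripts were called between the F1 testis and its parents, far fewer than between the parents themselves. A missed call does not show equality. With 1 probe set per gene, an unadjusted limma p under 0.05 was reached by 17.8% of genes against musculus and 14.9% against castaneus. Between castaneus and musculus, 3642 probe sets were called (13.5% of those tested), 2022 higher (7.48%) and 1620 lower (6%) in castaneus. The F1 was called against musculus in 794 probe sets (2.94%), 535 of them higher (1.98%) and 259 lower (0.958%) in the F1. Against castaneus 605 were called (2.24%), 425 higher (1.57%) and 180 lower (0.666%). These comparisons share the F1 arrays. Of the 794, 711 were among the parental calls, which is 19.5% of the parental calls, against 0.355% of all other probe sets; of the 605, 545 were among them, 15% against 0.257%. Single males moved these counts: the count against musculus was 361 or 501 without the first or the second F1 male and 410 or 282 without the first or the second musculus male. The count against castaneus was 293 without the first F1 male, and 298 or 275 without the first or the second castaneus male; the parental count was 2130 to 2356 without any 1 of the 4 parental males.

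The parental difference was inherited near the middle of the parental range. The position of the F1 is given as 1 at the castaneus mean and 0 at the musculus mean, on the log2 scale. Over the 3642 parental calls the median position was 0.526, with quartiles of 0.348 and 0.704, and it was 0.506 for the first F1 male and 0.546 for the second. The F1 mean lay between the parental means in 3400 of the 3642, and 66.7% of the positions fell within 0.25 to 0.75. Leaving out any 1 of the 6 arrays kept the median between 0.493 and 0.575.

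Sorted by which parent the F1 was called against, 584 parental calls (16%) were at the castaneus level, called against musculus but not against castaneus. Another 418 (11.5%) were at the musculus level, 125 (3.43%) lay between both parents and were called against each, and 2 (Tbc1d9 and Ctag2) were outside both. The remaining 2513 (69%) were undetermined, called against neither parent. Their median position was 0.515 and their median parental difference 0.86, against 2.52 for those called between both, so a missed call does not place the F1 at a parent. The class names likewise record calls and not equality with a parent. The median position was 0.774 at the castaneus level and 0.231 at the musculus level, and 0.707 and 0.294 on the linear signal scale. The classes leaned towards the higher parent: of the transcripts higher in castaneus 22.7% were at the castaneus level and 4.5% at the musculus level, whereas of those lower in castaneus 7.72% were at the castaneus level and 20.2% at the musculus level. The plot of the deviation from the parental mean shows both arms of this pattern.

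**Figure D1:**
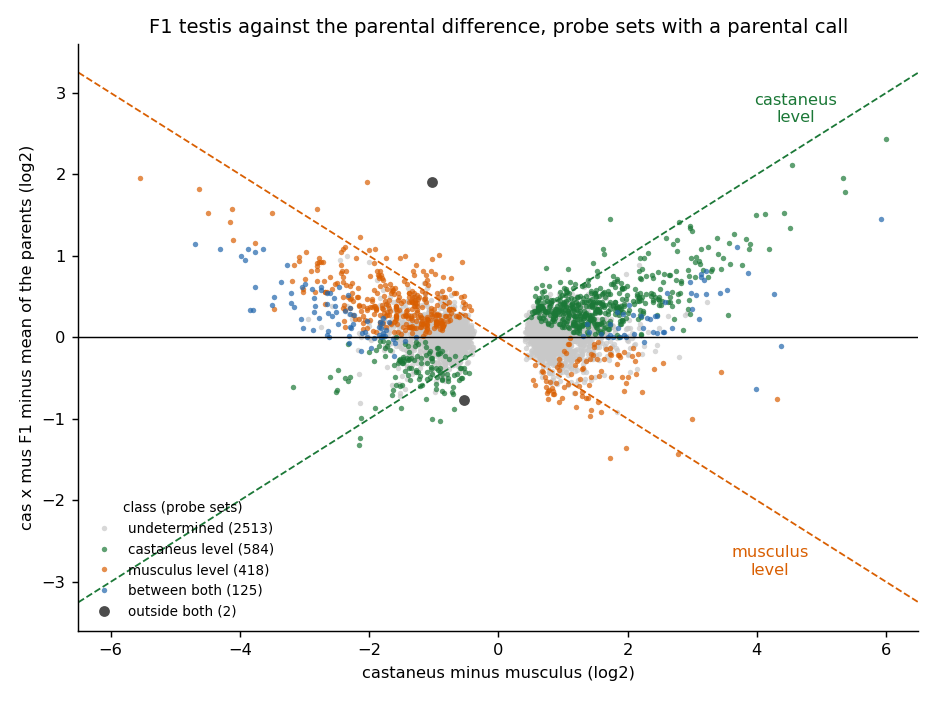
Each of the 3642 points is a probe set with a parental call. The horizontal axis is castaneus minus musculus and the vertical axis is castaneus x musculus F1 minus the mean of the parents, both in log2 units; colours mark the class, the solid line the mean of the parents and the dashed lines the level of each parent. For large parental differences in either direction most points lie above the solid line, towards the higher parent.

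That lean depended on the scale. For the 2022 transcripts higher in castaneus the median position was 0.604 on the log2 scale and 0.497 on the linear signal scale; for the 1620 lower in castaneus it was 0.429 and 0.537. It widened with the size of the parental difference. Among parental log2 differences of at least 3, the median position was 0.758 for the 51 higher in castaneus and 0.259 for the 38 lower, and on the linear scale 0.524 and 0.531. A hybrid at the arithmetic mean of 2 unequal signals lies above the mean of their logarithms, and by more the further apart they are. The F1 lay above the mean of the parental log2 values in 2333 of the 3642 and above the log2 of the mean parental signal in 1710.

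**Figure D2:**
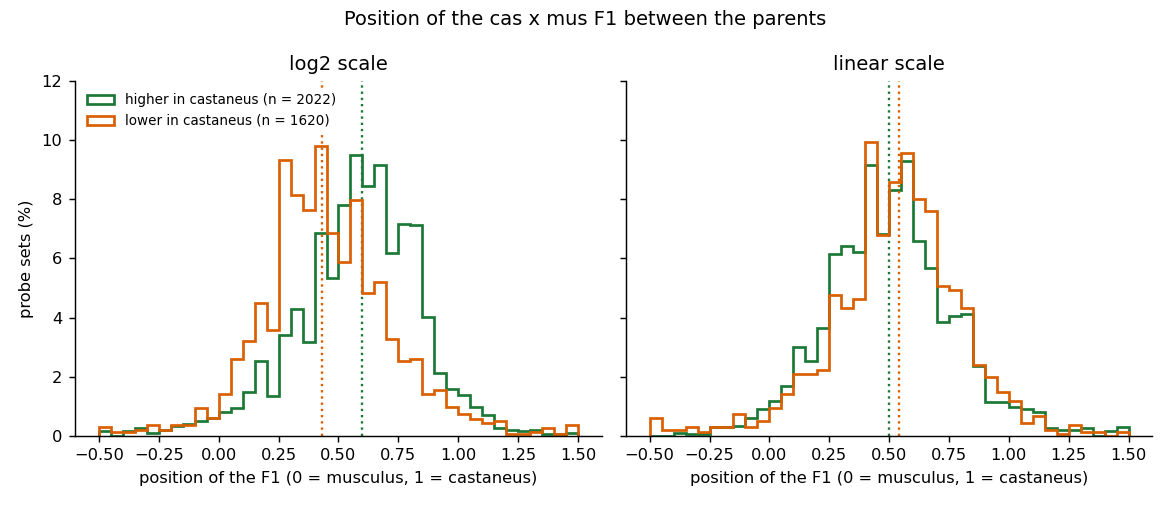
Position of the castaneus x musculus F1 between the parents, with 1 the castaneus and 0 the musculus mean, on the log2 scale (left) and the linear signal scale (right), as the percentage of probe sets per bin for those higher (2022) and lower (1620) in castaneus. Dotted lines are medians, 0.604 and 0.429 on the log2 scale and 0.497 and 0.537 on the linear scale; positions beyond the axis are counted in the end bins.

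Genes at the castaneus level included enzymes and transporters that were close to background in musculus. Lpcat2b, an acyltransferase that builds membrane phospholipids, had signals of 2500 and 2448 in the F1 males, 3910 and 3468 in castaneus and 46 and 13 in musculus. Ces1c, a carboxylesterase known from blood plasma, had 694 and 829 in the F1, 1343 and 1549 in castaneus and 6 and 4 in musculus. In both genes the F1 and castaneus males were high, musculus was near 0, and the F1 stood below both castaneus males without a call against them. The F1 was 5.43 ± 0.26 log2 units higher than musculus for Lpcat2b (adjusted p = 9.4e-08) and 4.46 ± 0.23 higher for Ces1c (adjusted p = 1.8e-07), where the error is the SE. Mrps9, a protein of the mitochondrial ribosome, followed the same order with 1856 and 2013 in the F1, 2653 and 3052 in castaneus and 121 and 149 in musculus. Its difference from musculus was 3.57 in that probe set, whereas the median of its 3 other probe sets was 0.70.

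Slc44a3, a choline transporter-like protein, was higher in the F1 than in musculus by 3.74, and Steap1, a metalloreductase, by 3.59, with 1 other Steap1 probe set at 2.22. Of the genes with at least 2 tested probe sets, 18 were called higher in the F1 than in musculus in every one of them and 6 lower. Among the 18 were Rgcc, a regulator of the cell cycle, at 2.06, and the small heat shock protein gene Hspb1, at 1416 and 1251 in the F1, 1837 and 2044 in castaneus and 286 and 147 in musculus. Its other probe set gave 1.49, and it was the only member called against musculus among the 32 tested genes of the heat shock list, a share near the 3.36% of all genes. The calls of Lpcat2b, Ces1c, Mrps9, Slc44a3, Steap1, Hspb1 and Rgcc against musculus were each kept when any 1 array was left out.

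Of the 8 named genes that fell furthest below musculus, 6 were at the castaneus level. The others, Tas1r2 (-2.06), a sweet taste receptor subunit, and C330024D21Rik (-1.80), had no parental call and stood below castaneus by -1.22 and -1.31, neither of them called. Msr1, the macrophage scavenger receptor, had 120 and 237 in the F1, 75 and 68 in castaneus and 835 and 958 in musculus, a difference of -2.20 ± 0.26 from musculus (adjusted p = 0.00034), with a median of -1.59 in its 2 other probe sets. Adh1, an alcohol dehydrogenase, had 490 and 340 in the F1, 258 and 262 in castaneus and 1494 and 1744 in musculus. The F1 males did not overlap with musculus in either gene. Slc17a3, an organic anion transporter, fell by 2.05 to a position of 0.97, and Ddx49, an RNA helicase, by 1.11 with 1 other probe set at -1.20. The complement genes C1qb and C1qc, made by macrophages, were lower in the F1 than in musculus by -0.97 and -1.11 and at positions of 1.09 and 1.15, but both calls were lost without either F1 male or either musculus male (adjusted p up to 0.17 and 0.19). The summed signal of the 12 tested macrophage and immune genes was 2979 and 3361 in the F1, 3733 and 3603 in castaneus and 4772 and 4152 in musculus, with none of them at 0, and its part in the values of Msr1, C1qb and C1qc was not tested. In whole testis, fewer cells of a type and less RNA per cell cannot be told apart.

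Of the 418 probe sets at the musculus level, 327 were lower and 91 higher in castaneus than in musculus, with a median parental difference of 1.44 in size. The genes named here were picked for large differences. Cd24a, which encodes a cell surface glycoprotein, had 959 and 832 in the F1, 46 and 28 in castaneus and 1749 and 1271 in musculus. The F1 exceeded castaneus by 3.78 ± 0.22 (adjusted p = 5.6e-07), its 2 other probe sets had a median of 3.09, and the call against castaneus was kept without any 1 array. Tpcn1, an endolysosomal cation channel, was higher than castaneus by 3.49 and Lrrc6, needed for the assembly of motile cilia, by 2.29, with other probe sets at 1.57 and 1.15. Stac, which binds calcium channels, had 1563 and 1358 in the F1, 149 and 150 in castaneus and 2347 and 2482 in musculus. Ift27, a part of the intraflagellar transport machinery, reached 2257 and 1853 in the F1, 565 and 584 in castaneus and 3149 and 2757 in musculus.

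Fewer genes were held low with musculus while castaneus was high. Slc29a4, a monoamine and nucleoside transporter, had 47 and 84 in the F1, 577 and 701 in castaneus and 83 and 52 in musculus, a position of -0.01; its other probe set gave -1.27 against castaneus where this one gave -2.82. The F1 and musculus males overlapped and all lay below castaneus. Capn3, a calpain protease, was lower than castaneus by -2.14 and -1.55 in its 2 probe sets. Rnaseh2b, a subunit of ribonuclease H2, had 3260 and 3296 in castaneus and 411 and 360 in musculus, and its F1 males differed widely at 237 and 1261. Its call against castaneus was lost without the first F1 male or without either castaneus male (adjusted p up to 0.13).

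Between both parents lay H2-Bl, a class I major histocompatibility gene, with 1375 and 1132 in the F1, 129 and 49 in castaneus and 2992 and 2785 in musculus. The F1 was 3.50 ± 0.26 above castaneus (adjusted p = 6.7e-06) and -1.19 ± 0.26 against musculus, the call against musculus being lost without either F1 or either musculus male (adjusted p up to 0.14). Cpn1, the catalytic subunit of plasma carboxypeptidase N, was 685 and 570 in the F1, 32 and 45 in castaneus and 1307 and 1385 in musculus, and Scarb2, a lysosomal membrane receptor, 1284 and 1232, 162 and 120, and 2467 and 2656 in the same order of groups. On the linear scale the F1 was at 0.58 for H2-Bl, 0.55 for Cpn1 and 0.54 for Scarb2, near the middle of the parents. Ndst4, an enzyme that sulfates heparan chains, was lower than musculus by -1.58 and higher than castaneus by 2.26, at 168 and 160 in the F1, 5 and 15 in castaneus and 616 and 495 in musculus. Only 1 gene with several probe sets, 1700010H22Rik, had all of them in this class.

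**Figure D3:**
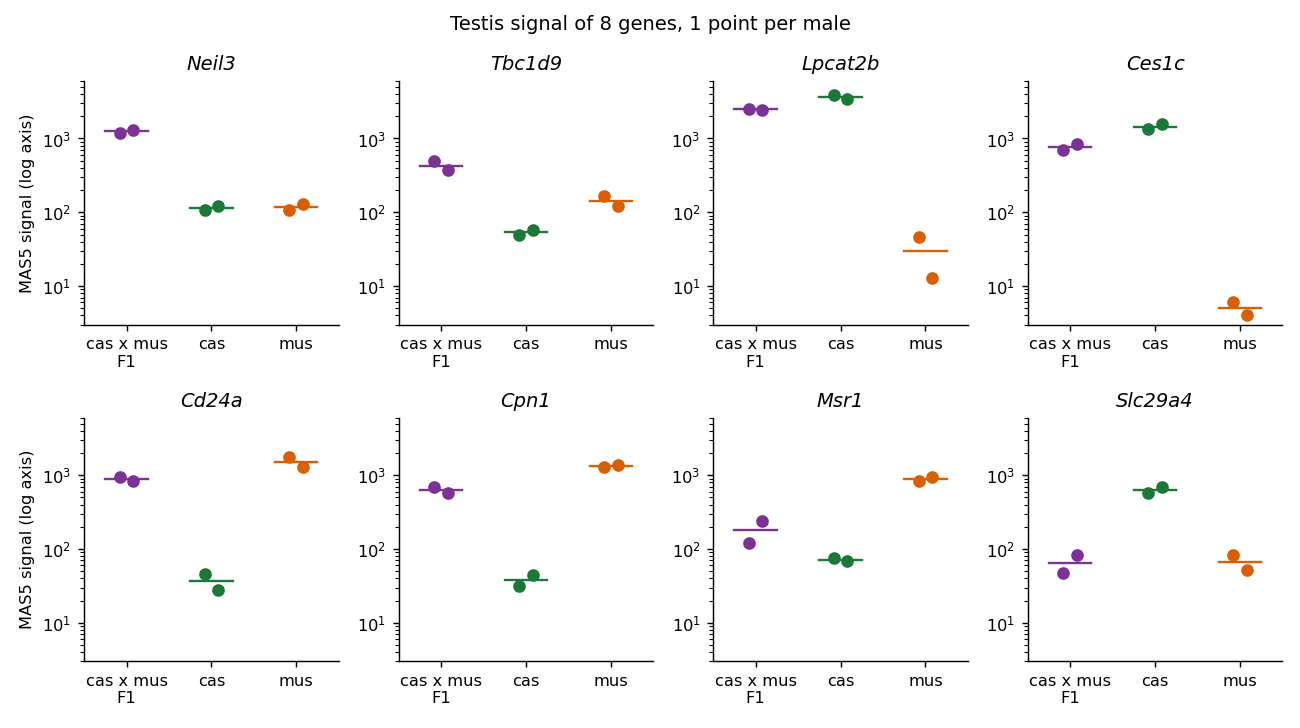
MAS5 signal (log axis) of 8 genes in testis, each point 1 male and each bar a group mean, for castaneus x musculus F1, castaneus and musculus (2 males each). Neil3 and Tbc1d9 are highest in the F1, on this log axis the F1 is closer to castaneus in Lpcat2b and Ces1c and closer to musculus in Cd24a and Slc29a4, and it lies between the parents in Cpn1 and Msr1. On the linear scale its position is 0.52 for Ces1c and 0.41 for Cd24a.

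Few transcripts were called against the mean of the parents. Only Neil3 passed the test for lying outside both, which takes the larger p of the comparisons with each parent. Measured against the mean of the parental log2 values, 81 probe sets were called (0.3%), 58 above (0.215%) and 23 below (0.0851%). Of these, 65 were parental calls, 53 above and 12 below, and 16 were not. On the linear scale 25 were called (0.0925%), 4 above (0.0148%) and 21 below (0.0777%), and 4 of the 58 and 16 of the 23 were called on both scales. The count depended on single males: it was 9, all above, without the first F1 male, 36 without the second and 43 without the second musculus male. Among the named calls against the mean of the parents, 4 were kept whichever array was left out: Neil3, Lpcat2b, Ces1c and Mrps9.

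Neil3, a DNA glycosylase that removes oxidised bases and unhooks some interstrand crosslinks, had 1184 and 1311 in the F1 males, 107 and 121 in castaneus and 106 and 129 in musculus. The F1 males stood far above all 4 parental males, which did not separate by subspecies. The F1 exceeded castaneus by 3.14 ± 0.17 (adjusted p = 4.4e-07), musculus by 3.11 ± 0.17 (adjusted p = 1.8e-07) and their mean by 3.12 ± 0.14 (adjusted p = 2.2e-07). It was the single probe set called outside both parents by the larger p (0.0037% of those tested), a test that neither Tbc1d9 nor Ctag2 passed, and the gene has 1 tested probe set. The signal was also high in the musculus x castaneus F1, at 979 and 818. Of the 6 other tested glycosylase genes, Mutyh differed from musculus by -0.94, a call that was lost without either F1 or either musculus male (adjusted p up to 0.17).

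Tbc1d9, which encodes a protein with a Rab GTPase-activating domain, had 488 and 371 in the F1, 50 and 58 in castaneus and 164 and 123 in musculus. That probe set was called against castaneus (2.43) and musculus (1.40) and lay 1.91 ± 0.24 above their mean, a call lost without the first F1 male (adjusted p = 0.092). Its call against musculus was lost without that male or without the second musculus male (adjusted p up to 0.13). The gene's other probe set was 0.21 above the mean and lower than musculus by -0.82 without a call, so the probe sets disagreed. Ctag2, a cancer/testis antigen gene and the other parental call in which the F1 was called beyond both parents, had 1274 and 1197 in the F1, 1704 and 1824 in castaneus and 2613 and 2500 in musculus. Its difference of -0.50 from castaneus (adjusted p = 0.049) was lost whichever array was left out. Of the calls above the mean, those of Lpcat2b (2.43), Gm30853 (1.95), Ces1c (1.78), Slc44a3 (1.53), Cd24a (1.53), Mrps9 (1.51) and Tpcn1 (1.41) belonged to genes with a large parental difference. Against the mean parental signal on the linear scale Lpcat2b was 0.41 higher (adjusted p = 0.72), and 1700029F12Rik, at 1.45 on the log2 scale, was at -0.53 without a call. Cd24a was the single gene with several probe sets all called above the mean.

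Of the 23 calls below the mean, 11 had no parental call, among them those of Mdm4, Pias3 and Oas1b, all dim in the F1. Mdm4, an inhibitor of p53, had 53 and 61 in the F1, 286 and 289 in castaneus and 203 and 160 in musculus in 1 probe set, a difference of -1.86 ± 0.25 from castaneus (adjusted p = 0.0012). Its 3 other probe sets had a median difference of -0.01 from castaneus and -0.02 from musculus. Pias3, a SUMO ligase, had 27 and 32 in the F1 against 172 and 154 in castaneus and 99 and 199 in musculus, with its other probe set at -0.21 and -0.07. Oas1b, an interferon-induced antiviral gene, had 32 and 50 in the F1, 137 and 216 in castaneus and 116 and 229 in musculus. The F1 males lay below all parental males in these probe sets, and the calls of all 3 against the mean of the parents were lost without either F1 male.

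Transcripts of the X chromosome with a parental call stood closer to castaneus in their median in the castaneus x musculus F1. No chromosome annotation was used here, so X-linked genes are those of a list written by hand, with 233 genes and 401 tested probe sets. The list is incomplete (Ctag2 is X-linked and not on it), so the parental calls outside it include further X-linked genes. With 1 probe set per gene, 18 of the 233 genes were higher and 2 lower in castaneus, where 8.18% and 6.97% of all genes were. Of the 401 probe sets, 35 of 30 genes had a parental call (13.5% of all tested probe sets did), 31 of them higher in castaneus. Their median position was 0.821 on the log2 scale and 0.79 on the linear scale, against 0.523 and 0.513 for the 3607 parental calls not on the list. Of the 35, 32 lay above 0.5 and 22 above 0.75. For the 31 higher in castaneus the median was 0.792, against 0.602 for the 1991 others higher in castaneus, and for the 4 lower in castaneus 1.25 against 0.428. The first F1 male alone gave 0.77 and the second 0.87, and leaving out any 1 array kept the X median between 0.725 and 0.906. The parental differences behind these positions also moved with single arrays. With each array left out, castaneus minus musculus was 0.39 to 1.21 for Fgf13 and 0.42 to 0.98 for Dkc1, but 0.86 to 1.13 for Acot9. In the musculus x castaneus F1, whose X is that of musculus, the median position of the same 35 was 1.06, with 1.34 for the 31 higher and -0.66 for the 4 lower in castaneus. In that F1 the 31 and the 4 thus both lay beyond the higher parent in their medians, so 1.06 does not describe a shift towards castaneus. These positions are a description, without a test.

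Of the 35, 10 were at the castaneus level, none at the musculus level and none between both, and the other 25 were undetermined. Most of the 10 calls against musculus depended on single males: 3 of them were kept without the first F1 male, 6 without the second, 4 or 3 without the first or the second musculus male, and 7 without either castaneus male. Zfp185, which encodes an actin-associated LIM protein, had 543 and 311 in the F1, 439 and 381 in castaneus and 22 and 44 in musculus. In this probe set the F1 exceeded musculus by 2.81 (adjusted p = 0.00027) and castaneus exceeded it by 2.80. The gene's 1 other tested probe set gave -0.32 and -0.17 for these differences, so the probe sets disagreed. Acot9, a mitochondrial acyl-CoA thioesterase, had 2967 and 2563 in the F1, 2673 and 3248 in castaneus and 1449 and 1478 in musculus, with a difference of 0.90 from musculus. In these probe sets the F1 males overlapped with castaneus and not with musculus. With each array left out, F1 minus musculus was 2.44 to 3.19 for Zfp185 and 0.8 to 1 for Acot9. Pja1, a ubiquitin ligase, had positions of 1.06 and 0.89 in its 2 probe sets with a parental call and Atp6ap2, an accessory subunit of the vacuolar proton pump, 1.07 and 0.89; both Atp6ap2 calls against musculus were lost whichever array was left out. For each of these Pja1 probe sets, the gene's 3 other tested probe sets had a median F1 minus musculus of -0.06. Pgk1, a glycolytic kinase, had positions of 1.13, 0.79 and 0.55.

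In 1 probe set each, the ubiquitin ligase genes Huwe1 and Cul4b were lower in castaneus and at positions of 1.39 and 1.36, below both parents in their means. Huwe1 had 687 and 834 in the F1, 966 and 814 in castaneus and 1235 and 1431 in musculus. Cul4b had 1211 and 1311 in the F1, 1550 and 1381 in castaneus and 2259 and 2145 in musculus. Both fell by 0.79 against musculus, with neither called against castaneus, and both calls were lost without the first F1 male or either musculus male (adjusted p up to 0.18 and 0.11). Their other probe sets disagreed: F1 minus musculus was -0.08 for Huwe1 and 0.42 for Cul4b, and castaneus minus musculus 0.15 and 0.56. The exceptions on the list were Mcts1 at a position of 0.04, Rp2 at 0.28 and Bex1 at 0.31, all undetermined. Mid1, not on the list, whose gene crosses the boundary of the pseudoautosomal region in laboratory mice, had 77 and 109 in the F1, 810 and 651 in castaneus and 30 and 6 in musculus. It was called against both parents, at a position of 0.34, while the musculus x castaneus F1 had 592 and 631.

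**Figure D4:**
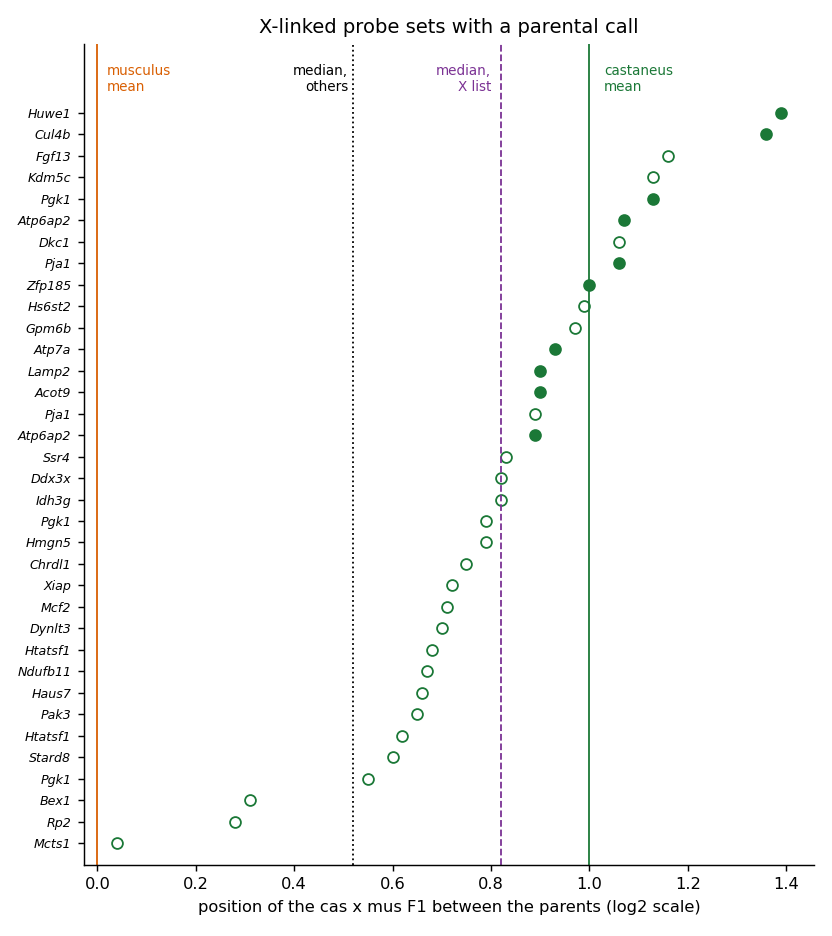
Position of the castaneus x musculus F1 between the castaneus mean (1) and the musculus mean (0) on the log2 scale for the 35 probe sets of the X list with a parental call, sorted; filled points are at the castaneus level (called against musculus only), open points undetermined. The dashed line is their median (0.821), the dotted line that of the 3607 other parental calls (0.523), and 3 points lie below 0.5.

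Over all 233 genes of the X list, with 1 probe set each, 4 were higher and 5 lower in the F1 than in musculus, where 2.16% and 1.2% of all genes were, and 1 was lower than castaneus and none higher, where 0.726% and 1.88% were. The median difference from the mean of the parents was -0.09, against -0.03 over all genes. Limma called none of the 5 tested Y-linked genes against either parent, where 2.6% of all genes were called against castaneus and 3.36% against musculus. An unadjusted p under 0.05 was reached by 0 of them against castaneus (14.9% of all genes) and by 1 against musculus (17.8%). So few genes would hardly hold a call in any case. Uba1y, a ubiquitin-activating enzyme, had 1064 and 966 in the F1, 1017 and 1184 in castaneus and 747 and 799 in musculus. It was the single Y-linked gene with a parental call (8.18% of all genes were higher in castaneus). That difference was 0.49 (limma adjusted p = 0.046, near the threshold), and 0.38 to 0.6 with each array left out. The F1 lay at a position of 0.77, closer to castaneus, while its Y is that of musculus.

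The few imprinted genes with a parental call, genes expressed from 1 parental allele in some tissues, had positions of 0.51 to 0.70. Of all parental calls 66.7% lay within 0.25 to 0.75, so this range is not particular to them. In the F1 the maternal allele is that of castaneus. Of 18 tested maternally expressed genes, 5 had a parental call, 2 higher and 3 lower in castaneus, where 8.18% and 6.97% of all genes were. Their positions were 0.55 to 0.67, all undetermined, among them Grb10, an adaptor of growth factor receptors, at 0.67. Of 17 paternally expressed genes, 3 had a parental call, all higher in castaneus. These were Plagl1, a zinc finger factor, at 0.51, Ndn, of the necdin family, at 0.68 and Inpp5f, an inositol phosphatase, at 0.70. Inpp5f was at the castaneus level, the maternal one, called against musculus by 1.09 (adjusted p = 0.012) and 1.44 in its other probe set; the first call was lost without the second F1 male or either musculus male. Plagl1 had 340 and 368 in the F1, 744 and 713 in castaneus and 105 and 235 in musculus, so the F1 males lay between the parents without a call against either. Mest and Mirg, with no parental call, were lower than castaneus by -1.15 and -1.23, calls lost without either F1 or either castaneus male. They were the only calls against castaneus on these lists, where 0.726% of all genes were lower and 1.88% higher.

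Few markers of germ cells were called between the F1 and its parents. By limma, none of the 30 tested round spermatid and acrosome genes, 25 elongating spermatid genes or 16 spermatogonial genes was called against castaneus, where 2.6% of all genes were, or against musculus, where 3.36% were. An unadjusted p under 0.05 was reached by 2, 0 and 2 genes of these lists against castaneus (14.9% of all genes) and by 4, 8 and 1 against musculus (17.8% of all genes). Acr, the acrosomal protease acrosin, had 5480 and 4398 in the F1, 3440 and 3556 in castaneus and 6080 and 6128 in musculus. Of 29 meiosis genes, Tex12, a part of the synaptonemal complex, was higher than musculus by 0.82, a call lost without either F1 male or the second musculus male. Prdm9, the methyltransferase that places recombination sites and a known hybrid sterility gene, had 138 and 155 in the F1, 107 and 115 in castaneus and 223 and 357 in musculus. It was lower in castaneus than in musculus by -1.15 (limma adjusted p = 0.0082), and by -1.45 to -0.84 with each array left out. The F1, at a position of 0.72 that rests on this difference, was called against neither parent.

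Among somatic lists, limma called none of 19 Sertoli cell, 8 peritubular or 8 endothelial genes against either parent. Of all genes 2.6% were called against castaneus and 3.36% against musculus, so lists this short would hold few calls in any case. An unadjusted p under 0.05 was reached by 1, 0 and 0 of them against castaneus (14.9% of all genes) and by 3, 1 and 1 against musculus (17.8%). Of 13 Leydig cell genes, 4 were higher in castaneus than in musculus (8.18% of all genes were), and the F1 took different places among them. Cyp17a1, the steroid hydroxylase and lyase of androgen synthesis, had 4310 and 3336 in the F1, 7270 and 5261 in castaneus and 1953 and 2443 in musculus, a position of 0.53. Ptgds, a prostaglandin D synthase, was at 0.81 with 3995 and 2592 in the F1, 5232 and 3123 in castaneus and 1234 and 1207 in musculus. Both rose against musculus (0.79 and 1.38), and both calls were lost without the first F1 male or without either musculus male. Klk1b24, a kallikrein with near-identical family members that could share its probes, was lower than castaneus by -2.92 ± 0.43 (adjusted p = 0.0019), at 309 and 207 in the F1, 3710 and 1205 in castaneus and 64 and 92 in musculus. The summed signal of the 13 genes, none of them at 0, was 20503 and 16029 in the F1, 31558 and 21501 in castaneus and 12595 and 13583 in musculus, and its part in these differences was not tested.

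Fat markers differed between the F1 males. Fabp4, a fatty acid carrier of adipocytes and vessels, had 1097 and 296 in the F1, 1863 and 1560 in castaneus and 94 and 142 in musculus. Its difference from musculus, 2.05, was called, with a second probe set at 2.09, and was lost without the first F1 male or without either musculus male. Lpl, which releases fatty acids from lipoproteins, had 739 and 156 in the F1, 767 and 1028 in castaneus and 254 and 280 in musculus. The first F1 male was the higher one in both genes. The summed signal of the 5 tested fat genes was 5400 and 2911 in the F1, 5534 and 5705 in castaneus and 3055 and 3554 in musculus, with none at 0; Car3 and Gsta3 differed likewise between the F1 males, at 1431 and 393 and at 638 and 82. The part of adherent fat in these values was not tested.

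Among detoxification and immune genes, calls were few per list. Of 21 glutathione S-transferase genes, 6 were higher and 1 lower in castaneus than in musculus, where 8.18% and 6.97% of all genes were. Gstm1, Gstm2 and Gsto1 rose in the F1 against musculus (0.71, 1.23 and 1.34), where 2.16% of all genes were higher, the call of Gstm1 being lost without the first F1 male or either musculus male. Gsta2, at 1059 and 1268 in the F1, 234 and 258 in castaneus and 1437 and 1486 in musculus, exceeded castaneus by 2.10 and lay at the musculus level. Gstm2 was also lower than castaneus by -0.60, a call lost whichever array was left out. Of 5 carboxylesterases, Ces1d rose with Ces1c, by 1.73. Genes of both families have close relatives that can share probes.

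Of 23 interferon response genes, 1 was higher and 1 lower in the F1 than in musculus (2.16% and 1.2% of all genes), and none was higher and 3 were lower than castaneus (1.88% and 0.726%). Oas1b, described above, was called lower than castaneus (-1.51) and lower than musculus (-1.45), but did not pass the test for lying outside both. Each call was lost without the first F1 male or without the second male of that parent. Ifi35 rose against musculus by 2.41 ± 0.18 (adjusted p = 5.0e-06), with 1799 and 1412 in the F1, 2510 and 3108 in castaneus and 267 and 283 in musculus. It was lower than castaneus by -0.80 (adjusted p = 0.034), a call lost without either F1 or either castaneus male. Ifi27 was at the musculus level with a difference of -1.10 from castaneus (adjusted p = 0.022), a call lost without the second F1 male or without the first castaneus male. Of 10 class I and antigen processing genes, H2-D1 was higher than musculus by 2.74, at 346 and 386 in the F1, 587 and 483 in castaneus and 21 and 37 in musculus, opposite to H2-Bl in which musculus was the high parent. The allelic sequences of these genes vary strongly between mice, and the effect of mismatched probes on their signals was not tested. Limma called none of 38 proteasome genes in the F1 against either parent, where 2.6% and 3.36% of all genes were called, with 4 at an unadjusted p under 0.05 against castaneus (14.9% of all genes) and 6 against musculus (17.8%).

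Fewer transcripts departed from the parents in the castaneus x musculus F1 than in the reverse cross. The musculus x castaneus F1 was called against the mean of the parents in 9552 probe sets (35.3%), against 81 in the castaneus x musculus F1, and was called outside both parents in 4149 (15.4%) against 1. The direct difference between the F1, castaneus x musculus minus musculus x castaneus, was called in 7687 probe sets (28.4%), 2851 higher (10.6%) and 4836 lower (17.9%), and in 3447 without the first castaneus x musculus F1 male. Quantile normalization moved the median difference over all probe sets from -0.24 to -0.03 and left 6122 calls, 3382 higher and 2740 lower, so the balance of directions depends on the scaling. Of the 30 round spermatid genes, 24 were higher in the castaneus x musculus F1 than in the reverse cross and none lower, and of the 25 elongating spermatid genes 15 were higher and none lower, where 15.2% of all genes were higher and 18.3% lower. Their median differences were 0.77 and 0.59, against -0.16 over all genes.

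The same test gave lower levels for 13 of the 19 Sertoli cell genes, 5 of 13 Leydig cell genes and 113 of the 233 X-linked genes, with 5 X-linked genes higher. Of all genes, 18.3% were lower and 15.2% higher. These counts use the signals as deposited, and the balance of directions depends on that scaling. The summed signal of the round spermatid list was 202066 and 179603 in the castaneus x musculus F1, 121072 and 110783 in the musculus x castaneus F1, and 183769 to 209202 in the parents. That of the X list was 146148 and 155444 in the castaneus x musculus F1, 215843 and 228436 in the musculus x castaneus F1, and 153408 to 172650 in the parents. On both measures the castaneus x musculus F1 males lay at or near the parental range and the reverse F1 males outside it. Cell composition and expression per cell cannot be told apart here, nor can the cross and the 1 day between the ages of the F1.

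**Figure D5:**
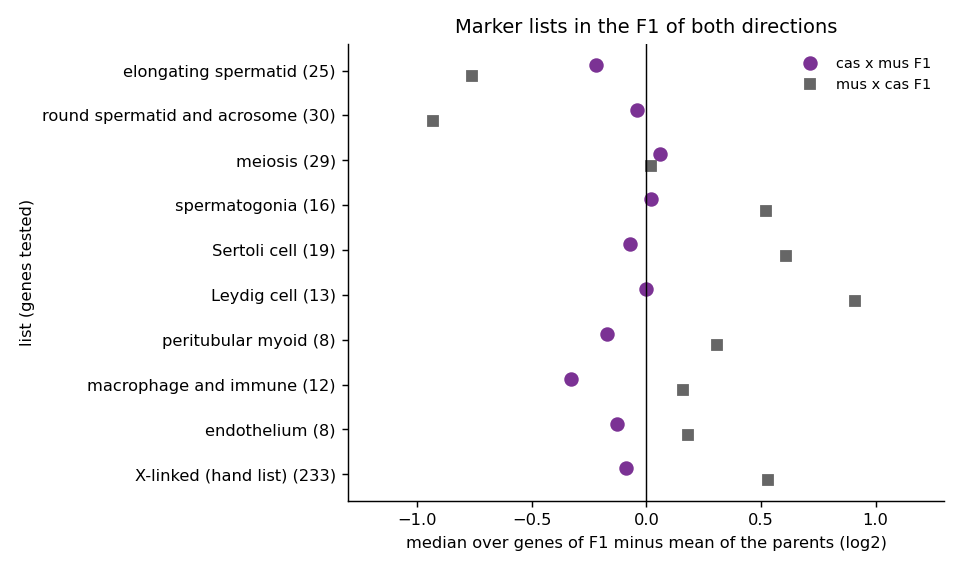
Median over the genes of each list (number tested in brackets) of F1 minus the mean of the parents in log2 units, for castaneus x musculus F1 (circles) and musculus x castaneus F1 (squares). The circles lie between -0.33 and 0.06, whereas the squares reach -0.93 for round spermatid genes and 0.91 for Leydig cell genes.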

How the data were processed

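Total RNA of 2 males per genotype was hybridised to Affymetrix GeneChip 430 2.0 arrays, 1 array per male and tissue, per the labels. The deposited intensity values are 1 linear signal per probe set, made by the authors with MAS5 per the submitters' processing notes. No version of it is stated in the sources used. The trimmed mean (2% at each end) was near 498 on every testis array, so the arrays were scaled before deposit. Median signals are in the range of 95 to 158. MAS5 reads laboratory-mouse probes, so a sequence difference can lower a subspecies' signal; this was not tested.

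Signals were taken as log2(signal + 31). Probe sets whose mean log2 value over the 14 testis arrays reached the 40th percentile were tested with limma 3.58.1 in R 4.3.3 (lmFit, eBayes with trend; 7 genotypes, 7 residual degrees of freedom), two-sided, with Benjamini-Hochberg adjustment per comparison over 27022 probe sets. Contrasts were the F1 minus castaneus, musculus, their mean and the musculus x castaneus F1, and castaneus minus musculus. The test outside both parents kept the larger of both p-values. The linear-scale mean of the parents used delta-method errors. The model was tested on simulated data.

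Symbols came from a platform annotation: 34945 probe sets had 1 symbol, 932 several and 9160 none, and only the first kind is named. A gene in a list is its brightest tested probe set. Named genes had 1 symbol, no suffix _x_at, a call and no overlap between the groups' arrays: the 8 largest differences per direction against each parent, the 10 largest from their mean and the 10 largest parental differences per class, with genes whose 2 or more probe sets were all called, _x_at ones included (Hspb1, Lrrc6 and Ift27 are printed from such). The text prints part of them, and list members are examples. Printed list members from _x_at probe sets include C1qb, Gstm1, Gsto1, H2-D1, Plagl1 and some probe sets of Pgk1 and Atp6ap2. Comparisons, gene lists and the naming rule were chosen with earlier results of these data known. Replicates are separate males per the labels; p-values measure the spread between these. Genome positions and sequences were not used here. Alternatives were quantile normalization, other pseudocounts (16, 64) and filters (none, 60th percentile), fewer arrays or probe sets, a replicate block and each array left out.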

Additional observations from a re-analysis of the deposited data

Results flagged for a closer look

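The F1 of both cross directions differed in 7687 probe sets by the direct test, castaneus x musculus minus musculus x castaneus. Some genes called against the mean of the parents in the castaneus x musculus F1 also differed between the directions. They are given here as the deviation from that mean in the castaneus x musculus F1 and then in the musculus x castaneus F1. They were picked among the largest deviations in the castaneus x musculus F1. A larger deviation there than in the other F1 thus follows in part from the choice. Several calls against the mean were near the threshold, with limma adjusted p of 0.047 for Kcnh1, 0.041 for Hdac7 and 0.034 for AA619741. As given above, of the genes listed here only Lpcat2b and Ces1c kept that call whichever array was left out. The deviations had opposite signs for Slc44a3 (1.53 and -0.89, difference 2.42), AA619741 (-1.24 and 0.71, difference -1.96) and Kcnh1 (-1.26 and 0.63, difference -1.89). Those above the mean in both directions were larger in the castaneus x musculus F1: the difference was 1.29 for Gm30853, 1.21 for Lpcat2b, 1.09 for Tpcn1, 0.85 for Tbc1d9, 0.77 for 1700029F12Rik and 0.74 for Ces1c. Those below it in both directions were lower in the castaneus x musculus F1: the difference was -1.18 for Mdm4, -1.15 for Oas1b, -1.08 for Hdac7, -0.96 for Tas1r2 and -0.86 for Pias3. The adjusted p of these differences in limma ranged between 6.2e-05 (Slc44a3) and 0.049 (Tas1r2). Neil3 was not among them.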

How the results depend on the processing

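The balance of higher and lower calls turned under some alternatives: 58 above and 23 below the mean of the parents became 4 and 21 on the linear scale, 2022 higher and 1620 lower in castaneus than in musculus became 1094 and 1197 without the first castaneus male, and 2851 higher and 4836 lower in the castaneus x musculus F1 than in the reverse F1 became 3382 and 2740 under quantile normalization. Counts against the mean of the parents were 46 with no filter on low values, 25 on the linear scale and 159 when p-values were adjusted among parental calls only. With a fit of only the 6 arrays, calls fell to 516 against musculus, 362 against castaneus and 40 against the mean of the parents, with 274 at the musculus level and 59 between both; that fit has fewer samples. With each of the 6 arrays left out in turn, where the lone male of a group is assumed to vary like the other groups, the counts ranged between 282 and 735 against musculus, 275 and 547 against castaneus, 9 and 64 against the mean of the parents, 2130 and 3695 for castaneus minus musculus, and 3447 and 7625 between the F1 of both directions. The classes ranged between 220 and 555 at the castaneus level, 189 and 415 at the musculus level, 28 and 73 between both and 1342 and 3127 undetermined, transcripts outside both parents between 1 and 5, the median position between 0.493 and 0.575 and that of the X list between 0.725 and 0.906. Of 276 calls of named genes, 190 to 236 were kept with 1 array left out, 255 under quantile normalization and 232 with no filter, and none of these changed direction. On the linear scale 8 of 23 calls against the mean of the parents were kept, and 1700029F12Rik reversed to -0.53 (adjusted p = 0.52). The cause of these changes was not tested.

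Same-numbered males of the F1 and castaneus correlated in their deviations at -0.131, of the F1 and musculus at 0.188 and of castaneus and musculus at 0.0953. With 2 arrays per group these values cannot show whether same-numbered arrays share a batch. The main fit did not pair them. With the replicate number as a block, 808 probe sets were called against musculus, 611 against castaneus, 79 against the mean of the parents, 3754 for castaneus minus musculus and 7838 between both F1; the replicate block changed no count by over 1.5 times and kept 265 of the 276 named calls.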

Other observations

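Subunits of the mitochondrial respiratory chain were mostly lower in castaneus among those with a parental difference. Of 61 tested genes, 9 were lower and 1 higher in castaneus than in musculus, where 6.97% and 8.18% of all genes were. Without the first castaneus male, 2 of the 61 were lower and none higher, and without the first musculus male 4 were lower and 1 higher; the summed signal of the list was 356268 and 305154 in the F1, 271677 and 331861 in castaneus and 345948 and 347406 in musculus. For the 9 lower in castaneus the F1 had a median position of 0.32 on the log2 scale and 0.36 on the linear scale, with a range of 0.13 to 0.49 and of 0.15 to 0.56, where all parental calls lower in castaneus had medians of 0.429 and 0.537. Cox7a1, the 1 higher in castaneus, was at 0.56. Ndufs5, a subunit of complex I, had 3376 and 2499 in the F1, 1156 and 1221 in castaneus and 3713 and 3312 in musculus. It was the only one of the 61 called in the F1, by 1.27 against castaneus (adjusted p = 0.0028), and the call was kept with any 1 array left out. Ndufc1, another complex I subunit, had 8914 and 7086 in the F1, 3746 and 5340 in castaneus and 10154 and 9664 in musculus, and its difference of 0.82 from castaneus was not called (adjusted p = 0.055).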
